A study of Mus musculus with 6 samples.

Results

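The 44 genes described here belong to the machinery of apoptosis and to the response to the tumour suppressor p53. They are the genes with a single symbol in the array annotation that starts with Casp, Bcl2, Gadd45, Sesn, Trp53 or Birc (without Birc5), together with the named death receptors, BCL2 family members, mitochondrial death factors and p53 target genes that had a probe. They make up 44 of the 8841 genes that the annotation names with 1 symbol, and each was read by 1 probe. Of the 23 genes the rule names singly, Bax, Bbc3 and Ripk1 (3) had no probe with that single symbol. Neither did Trp53 or Sesn2, so the p53 gene itself was not analysed here.

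The cells were 2T3, an established pre-osteoblast line of mouse origin, and expression was measured with 1 array for each of 6 total RNA samples. The static group held 3 samples from cells kept still in Opticells, flat culture cassettes with gas-permeable membranes. The other group held 3 samples from cells in the same cassettes turned on a Random Positioning Machine, which reorients the culture continuously and is used to simulate microgravity. The labels give neither the length of exposure nor whether the 3 samples of each group were grown separately. The p-values therefore set the difference between groups against the spread of these samples within groups, and that spread may be technical. Only mRNA of a whole culture was measured, so that fewer cells with a transcript and less transcript per cell cannot be told apart.

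Apoptosis is started from outside the cell by death receptors, whose adaptors bring initiator caspases together, or from inside when pro-death members of the BCL2 family open the outer mitochondrial membrane. Survival members of that family and the inhibitor-of-apoptosis proteins hold both routes in check. The transcription factor p53 switches on genes of both routes and genes that halt the cell cycle or aid repair, and in the osteoblast lineage it is known to restrain differentiation and proliferation. As background on the model, 2T3 cells were derived from mice carrying the SV40 large T antigen under a Bmp2 promoter, and that antigen binds p53. Its level in these cultures was not measured here. Much of the control of apoptosis acts on proteins, by cleavage, phosphorylation and release from mitochondria, which mRNA levels do not show.

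Intensities are given relative to the median of their array, so that 1 is the level of the middle probe. The 6 arrays carried 10337 to 10432 values each and had similar medians. Static 2 and microgravity 2 stood apart in having fewer values at the lower floor of 0.1 of the median, 9.05% and 6.34% of probes against 17.0% to 19.7% on the other 4 arrays. Of the osteoblast markers, 7 of 11 were measured. Col1a1, Col1a2, Sparc and Postn were far above the array median on every array, and Ibsp lay at 0.154 to 0.289. Alpl, the bone alkaline phosphatase gene, read 2.85 ± 0.513 on static and 0.599 ± 0.0847 on microgravity arrays, and Pth1r, the parathyroid hormone receptor gene, 5.33 ± 0.408 and 1.06 ± 0.0892 (n = 3 each). These 2 markers fell in simulated microgravity (log2 change -2.25 and -2.34, limma adjusted p = 0.0295 and 0.0194), though no probe passed with any 1 array left out. Summed over the markers measured, the osteoblast list lay at 307 to 440 on static arrays and at 201 to 254 in simulated microgravity. Sparc was the brightest gene in this sum, at 173 to 246 on static and 116 to 154 on microgravity arrays (limma adjusted p = 0.457). The groups of Col1a1 overlapped. The adipocyte list (4 of 6 measured) lay at 42.5 to 50.1 and 35.4 to 40.9, and 0 of its genes passed. Within it Lpl read 16.9 ± 0.804 and 9.89 ± 1.56, Fabp4 26.1 ± 4.35 and 26.5 ± 1.57, Pparg 2.75 ± 0.628 and 2.02 ± 0.0644, and Adipoq was close to the floor. The summed chondrocyte (4 of 6 measured), endothelial (4 of 5), skeletal muscle (6 of 6) and macrophage and blood (4 of 6) lists overlapped between the groups. Of the macrophage and blood genes, Cd14 (13.1 ± 2.34 and 10.5 ± 3.39) and Lyz2 (2.52 ± 0.463 and 2.32 ± 0.218) were above the array median, while Ptprc and Adgre1 were at or near the floor. Col2a1 lay near the median, at 1.01 ± 0.206 and 0.957 ± 0.303, and Comp, Cdh5, Pecam1 and Myog were close to the floor. Whether the difference in the osteoblast and adipocyte lists has a part in the results on apoptosis genes was not tested.

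None of the genes of apoptosis and the p53 response passed the threshold. Of the 44 genes, 43 could be tested, and 0 had a limma adjusted p under 0.05 over all probes, against 0.276% of the 10146 probes tested. The lowest adjusted p among them was 0.0951, for Sesn1. At an unadjusted p under 0.05 there were 11, of which 8 were lower and 3 higher in simulated microgravity. The 8 lower genes were 18.6% of the 43, where 5.70% of all 8586 tested genes met the same condition, and the 3 higher were 6.98%, where 5.79% of all genes did. Static and microgravity values did not overlap in 8 genes on the lower side (18.6%, against 8.07% of all genes) and in 4 on the higher side (9.30%, against 8.51%). The list was brighter than the background. Of the 43, 31 lay above the array median and 3 had a value at the floor, against 4625 and 1567 of the 8586. Without the dimmest 50% of probes, 7 of 31 were lower and 2 higher at an unadjusted p under 0.05. The shares of all genes were then 7.43% and 8.38%. The median log2 change of the 43 was -0.04, with 23 lower and 20 higher, beside a median of 0.05 over all genes. The genes are given below by their roles. No gene named below passed after adjustment.

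**Figure D1:**
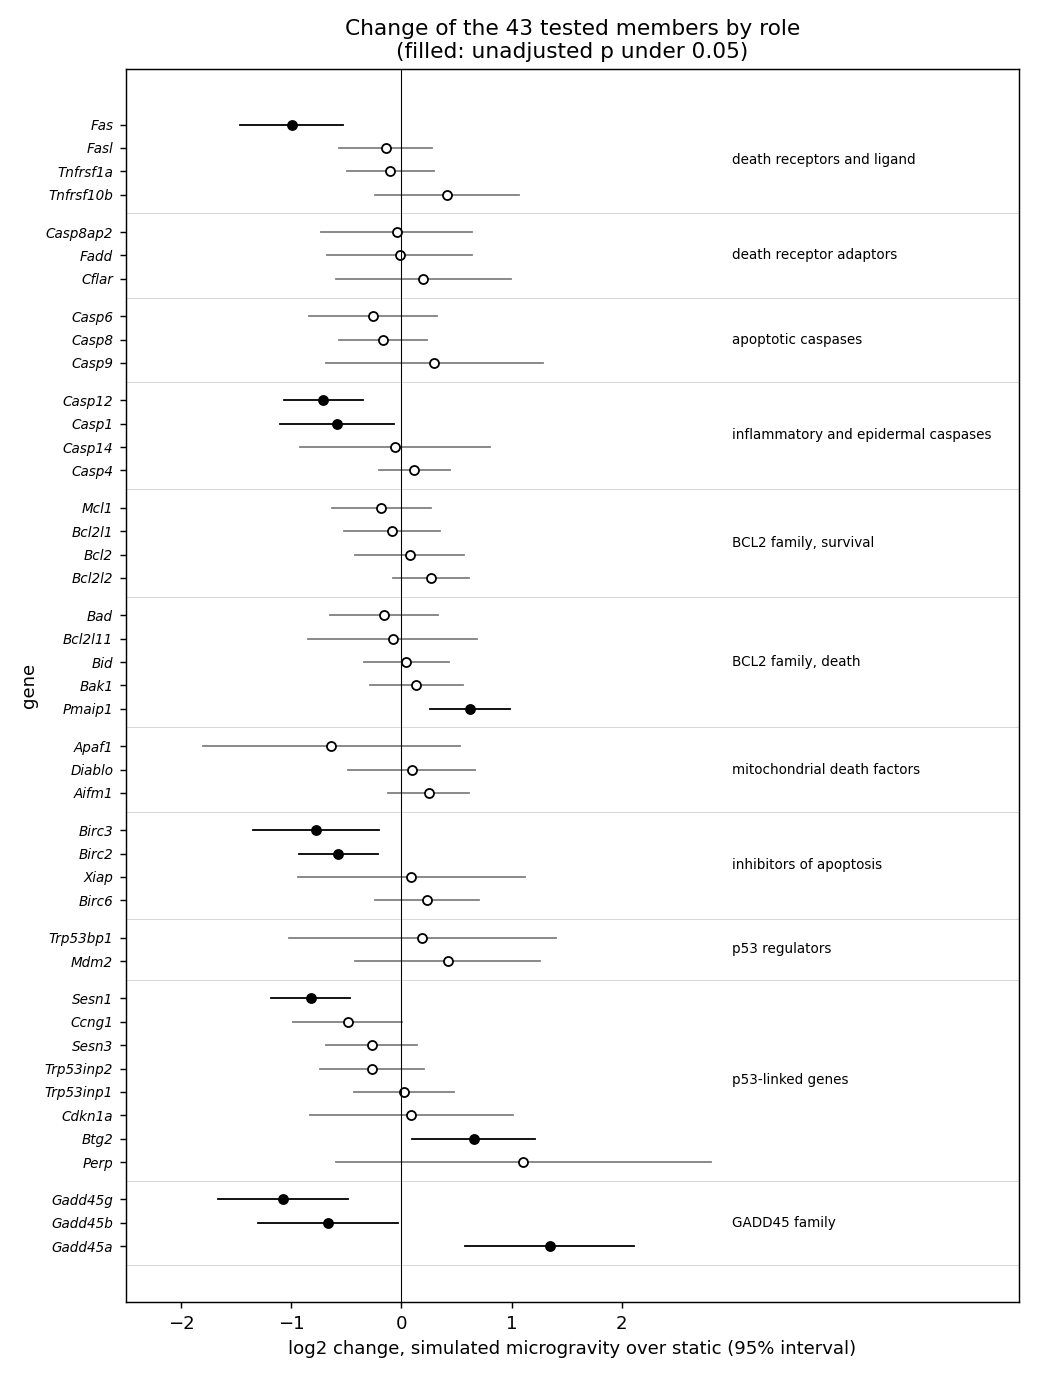
Log2 change (simulated microgravity over static, x axis) with its 95% interval for the 43 tested genes, grouped by role (y axis); filled points have an unadjusted limma p under 0.05. Filled points lie on both sides of 0 within the GADD45 family and among the p53-linked genes, and 32 of the 43 points are open.

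Among death receptors, Fas had the lowest ratio. Fas is the receptor that recruits FADD and caspase-8 when bound by its ligand, and it is also a p53 target gene. It read 5.66, 6.54 and 5.17 on static 1, 2 and 3 and 2.69, 3.64 and 2.45 on microgravity 1, 2 and 3. All 3 static arrays lay above all 3 microgravity arrays, and the gene was 2.00-fold lower in simulated microgravity (log2 change -0.997, SE 0.20, limma adjusted p = 0.109). With 1 array left out in turn the log2 change stayed between -1.16 and -0.88.

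The window around the Fas start site is shown because this receptor had the second-lowest p of the list. Promoter windows are from RefSeq on GRCm38.p6 and run from 250 bases before to 50 bases after an annotated start. They were searched on both strands for the p53 half-site consensus, the AP-1 site TGANTCA, the TATA box TATAAA, the cyclic AMP response element TGACGTCA and the CCAAT box CCAAT. The capitals mark an AP-1 match at positions -211 to -205 from the start, the one match found in the window.
Fas, chr19:34290409-34290708, + strand: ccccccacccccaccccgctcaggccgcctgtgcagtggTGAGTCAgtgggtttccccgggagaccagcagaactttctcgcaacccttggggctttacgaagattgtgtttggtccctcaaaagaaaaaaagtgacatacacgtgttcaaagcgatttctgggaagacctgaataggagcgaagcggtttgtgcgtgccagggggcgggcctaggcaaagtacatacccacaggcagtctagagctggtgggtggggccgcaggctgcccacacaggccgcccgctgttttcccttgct
AP-1 sites stood in 1 of the 50 windows of the 40 genes with an entry and in 7.81% of all 32851 windows.

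The other death receptors had overlapping groups. Tnfrsf10b, the mouse receptor for the death ligand TRAIL, had 1.41 ± 0.299 on the static and 1.90 ± 0.553 on the microgravity arrays (mean ± SD, n = 3 each). Tnfrsf1a, the main receptor for tumour necrosis factor, had 6.06 ± 0.975 (static) and 5.61 ± 0.429 (microgravity). The 95% intervals of the log2 change were -0.24 to 1.06 for Tnfrsf10b and -0.49 to 0.29 for Tnfrsf1a. The ligand gene Fasl was at the floor on 4 of the 6 arrays and reached 0.147 on static 2, so no level can be compared.

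The adaptors that link receptors to caspases had overlapping groups. Fadd, the adaptor that binds caspase-8, read 4.01, 2.62 and 2.60 on the static and 2.58, 2.46 and 4.15 on the microgravity arrays. The high values were on static 1 and microgravity 3, and the log2 change of -0.02 had an interval of -0.67 to 0.64. Cflar, the catalytically inactive relative of caspase-8 that blocks its activation, was dim, at 0.316, 0.444 and 0.284 (static) and 0.273, 0.391 and 0.568 (microgravity). Its groups overlapped (log2 change 0.20, interval -0.59 to 0.99). Casp8ap2, a large protein named for binding caspase-8, had 2.35 ± 0.718 on the static and 2.26 ± 0.539 on the microgravity arrays.

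Of the 4 measured caspases that carry out apoptosis, 3 could be tested and their groups overlapped. Casp8, the initiator of the receptor route, read 5.02, 3.83 and 4.04 on the static and 3.60, 4.26 and 3.57 on the microgravity arrays (log2 change -0.17, interval -0.56 to 0.23). Casp9, the initiator of the mitochondrial route, had a value on 4 arrays, 0.487 and 0.431 on static 1 and 3 and 0.737 and 0.432 on microgravity 1 and 3, and those groups overlapped (log2 change 0.30, interval -0.69 to 1.29). Casp6, an executioner, had 6.97 ± 1.88 (static) and 5.79 ± 1.30 (microgravity). Casp2, an initiator linked to genotoxic stress, was not tested, because only static 2 (12.5) of the static arrays had a value beside microgravity 1 and 2 (12.2 and 11.6).

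Among the inflammatory caspases, Casp12 and Casp1 had groups apart. Casp12, whose product lies at the endoplasmic reticulum, read 15.8, 13.2 and 11.9 on the static and 7.93, 8.54 and 8.42 on the microgravity arrays. The groups did not overlap and the gene was 1.63-fold lower in simulated microgravity (log2 change -0.71, SE 0.15, limma adjusted p = 0.132). Casp1, which matures interleukin-1 beta and interleukin-18, read 0.607, 0.639 and 0.560 (static) and 0.464, 0.348 and 0.398 (microgravity), with all microgravity values below all static ones (log2 change -0.59, SE 0.22, limma adjusted p = 0.387). Casp1 lay below the array median throughout, and without static 2 and microgravity 2 together its log2 change was -0.44.

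Casp4, the sensor of intracellular lipopolysaccharide also called caspase-11, had 8.39 ± 0.284 on the static and 9.13 ± 0.965 on the microgravity arrays (log2 change 0.12, interval -0.20 to 0.44). In the GRCm38.p6 gene table Casp1, Casp4 and Casp12 follow each other with 0 protein-coding genes between them, and of these 3 neighbours Casp1 and Casp12 had groups apart while those of Casp4 overlapped. Casp14, a caspase of keratinising epidermis, had 1.22 ± 0.436 (static) and 1.14 ± 0.312 (microgravity), with its lowest value in each group on static 2 and microgravity 2.

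The 4 survival genes of the BCL2 family had log2 changes between -0.18 and 0.27. Mcl1, a short-lived survival protein, read 10.7, 7.06 and 9.85 on the static and 7.85, 7.43 and 8.78 on the microgravity arrays, with overlapping groups (interval of the log2 change -0.63 to 0.27). Bcl2 itself was dim, at 0.306, 0.356 and 0.328 (static) and 0.389, 0.358 and 0.299 (microgravity) (interval -0.42 to 0.56). The probe for Bcl2l1, which encodes the survival protein BCL-xL, was close to the floor, at 0.178, 0.219 and 0.173 (static) and 0.165, 0.208 and 0.164 (microgravity) (interval -0.52 to 0.35). Bcl2l2, which encodes BCL-w, was the survival gene whose groups did not overlap. It read 4.28, 4.82 and 5.24 on the static arrays and 5.46, 6.29 and 5.51 on the microgravity arrays, a log2 change of 0.27 (interval -0.08 to 0.61, limma adjusted p = 0.630).

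Of the 5 pro-death genes of the family, Pmaip1 stood out. Pmaip1 encodes NOXA, a protein that binds and neutralises MCL1 and is induced by p53 and by other stress pathways. It read 3.17, 3.45 and 4.20 on static 1, 2 and 3 and 5.49, 5.46 and 5.54 on microgravity 1, 2 and 3. All microgravity arrays lay above all static arrays and close to each other, and the ratio was 1.54 (log2 change 0.62, SE 0.15, limma adjusted p = 0.182). The groups of its partner Mcl1 overlapped, as given above.

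Bak1, one of the proteins that form the pore in the outer mitochondrial membrane, read 1.83, 1.95 and 1.67 on the static and 1.75, 1.98 and 2.27 on the microgravity arrays, and its groups overlapped (interval -0.29 to 0.56). Bid, which carries the signal of caspase-8 to mitochondria, had 4.03 ± 0.278 (static) and 4.19 ± 0.628 (microgravity). Bad, whose activity is held back by growth factor signalling, had 1.59 ± 0.159 (static) and 1.43 ± 0.264 (microgravity). Bcl2l11, which encodes BIM, had 0.561 ± 0.103 (static) and 0.551 ± 0.215 (microgravity), and of these 3 genes none had groups apart.

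Factors that act after the membrane opens overlapped between the groups. Apaf1, the scaffold on which caspase-9 is activated, read 0.540, 0.458 and 0.756 (static) and 0.206, 0.755 and 0.321 (microgravity), where microgravity 2 was far above the other 2 arrays of its group. Its interval was wide (-1.80 to 0.53). Diablo, which encodes the released inhibitor of IAP proteins called SMAC, had 7.34 ± 2.37 (static) and 7.62 ± 1.02 (microgravity). Aifm1, an oxidoreductase of the mitochondrial inner membrane that moves to the nucleus in some forms of death, had 5.46 ± 0.546 (static) and 6.49 ± 0.759 (microgravity) (log2 change 0.25, interval -0.12 to 0.61).

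Both measured cellular inhibitors of apoptosis were lower in simulated microgravity. Birc2, encoding cIAP1, a ubiquitin ligase that keeps tumour necrosis factor signalling on its survival branch, read 5.34, 4.27 and 5.09 on the static arrays and 3.29, 3.08 and 3.48 on the microgravity arrays. The groups did not overlap (log2 change -0.57, SE 0.15, limma adjusted p = 0.202). Birc3, encoding the close relative cIAP2, read 2.27, 2.60 and 2.99 (static) and 1.60, 1.93 and 1.14 (microgravity). It was 1.71-fold lower, again without overlap (log2 change -0.78, SE 0.24, limma adjusted p = 0.292). Birc2 and Birc3 are direct neighbours in the GRCm38.p6 gene table, and signal shared between their probes was not tested. Xiap, the direct caspase inhibitor, was close to the floor, at 0.210, 0.348 and 0.1 (static) and 0.192, 0.195 and 0.235 (microgravity), and no difference was detectable at this signal. Birc6, a very large ubiquitin-conjugating enzyme of the family, had 3.84 ± 0.0327 on the static and 4.61 ± 1.11 on the microgravity arrays, where its 3 arrays were far more spread.

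**Figure D2:**
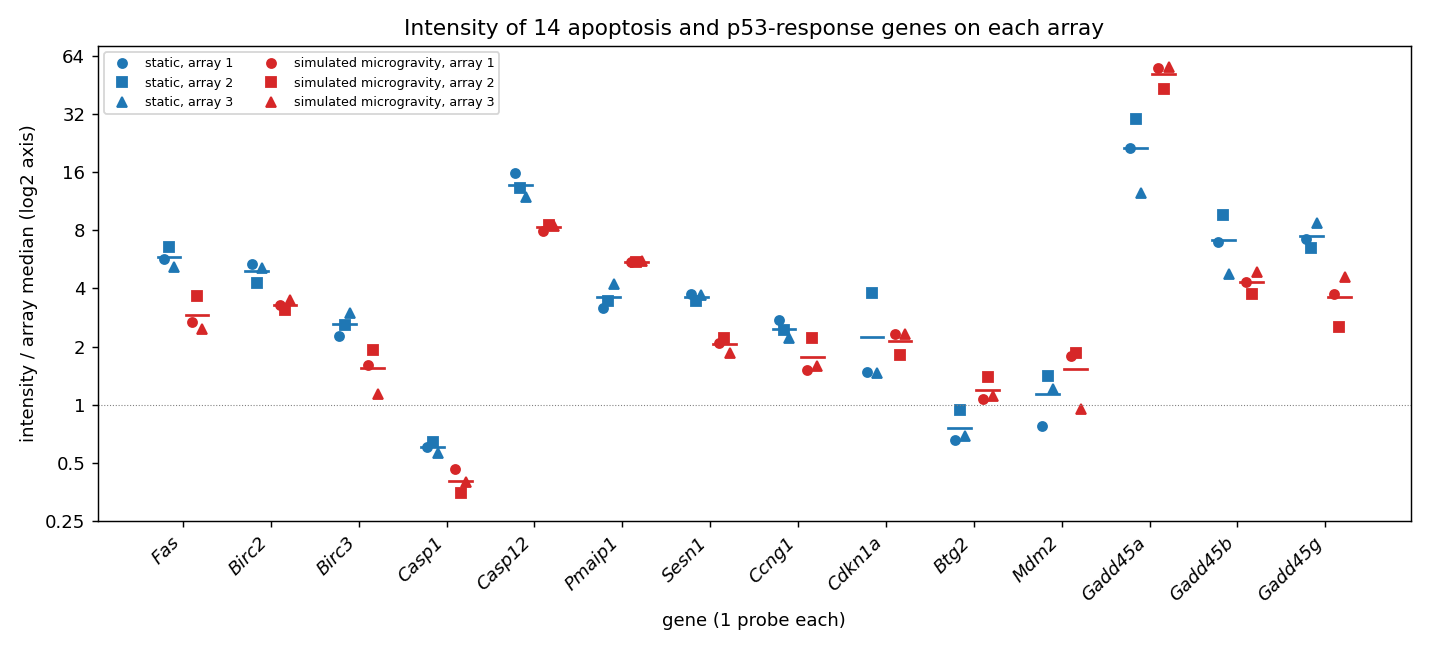
Intensity relative to the array median (y axis, log2 scale) of 14 genes (x axis) on each array; blue marks are static, red marks simulated microgravity, shapes give the sample number and bars the arithmetic mean of 3 arrays. Red marks lie below all blue marks for Fas, Birc2, Birc3, Casp1, Casp12, Sesn1, Ccng1 and Gadd45g and above them for Pmaip1, Btg2 and Gadd45a.

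Among the p53-linked genes, Sesn1 had the lowest p of all 43 tested. It encodes sestrin 1, which restrains the growth kinase complex mTORC1 and is induced by p53. It read 3.75, 3.44 and 3.70 on static 1, 2 and 3 and 2.09, 2.22 and 1.85 on microgravity 1, 2 and 3. The groups were tight and well apart, 1.77-fold lower in simulated microgravity (log2 change -0.82, SE 0.15, limma adjusted p = 0.0951). With array weights, which count noisier arrays less, Sesn1 and Fas passed (both limma adjusted p = 0.0458), while over all 21 alternative settings the adjusted p of Sesn1 ran from 0.0458 to 0.361 and that of Fas from 0.0458 to 0.377.

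RefSeq gives Sesn1 2 start sites, and the window with a p53 half-site is printed because the gene led the list. The window of the other start held a CCAAT box and no p53 half-site. Which start these cells use was not measured. The capitals mark the half-site at positions -173 to -164 and a CCAAT box, read on the opposite strand, at -91 to -87.
Sesn1, chr10:41887189-41887488, + strand: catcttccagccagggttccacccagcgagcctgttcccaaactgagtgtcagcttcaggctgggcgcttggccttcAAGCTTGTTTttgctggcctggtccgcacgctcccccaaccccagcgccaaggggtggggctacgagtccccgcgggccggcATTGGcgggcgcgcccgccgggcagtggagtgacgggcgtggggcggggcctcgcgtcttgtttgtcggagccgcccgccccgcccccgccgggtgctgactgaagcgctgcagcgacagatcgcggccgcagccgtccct
A p53 half-site match was found in 7 of the 50 windows (14%), in Sesn1, Ccng1, Cdkn1a, Mdm2, Gadd45a, Birc2 and Fasl, and in 8.36% of all windows. The cyclic AMP response element was found in Birc2, Btg2 and Trp53inp2 (3 windows, 6%), and in 1.79% of all windows. A match describes letters and is not evidence of binding.

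Ccng1, encoding cyclin G1, a p53 target, read 2.74, 2.43 and 2.22 on the static and 1.52, 2.22 and 1.59 on the microgravity arrays. The lowest static value (static 3) and the highest microgravity value (microgravity 2) nearly met, and the log2 change of -0.49 (SE 0.21, limma adjusted p = 0.464) just missed 0.05 before adjustment. Btg2, an antiproliferative gene induced by p53 and by growth factors, was higher. It read 0.659, 0.934 and 0.686 (static) and 1.07, 1.39 and 1.12 (microgravity), with all microgravity values above all static ones (log2 change 0.66, SE 0.23, limma adjusted p = 0.368).

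Cdkn1a, encoding the cell cycle inhibitor p21 and among the best known p53 targets, read 1.47, 3.77 and 1.45 on static 1, 2 and 3 and 2.32, 1.81 and 2.32 on microgravity 1, 2 and 3. Static 2 was far above every other array, while static 1 and 3 lay below all 3 microgravity arrays. The log2 change was 0.09 (interval -0.83 to 1.02) with all arrays and 0.55 without static 2, and it was 0.67 without static 2 and microgravity 2 together, so the value rested on static 2. Mdm2, the ubiquitin ligase that degrades p53 and is itself a p53 target, read 0.772, 1.41 and 1.21 (static) and 1.78, 1.86 and 0.950 (microgravity). Its groups overlapped (log2 change 0.42, interval -0.42 to 1.26), and the log2 change was 0.17 without static 1, 0.28 without microgravity 1, 0.25 without microgravity 2 and 0.73 without microgravity 3.

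Among the remaining p53-linked genes, Perp, a membrane protein of cell junctions, was near the floor on 5 arrays and at 1.03 on microgravity 2. Its log2 change of 1.11 became 0.21 without that array. Sesn3, the sestrin chiefly controlled by FOXO factors, had 5.06 ± 0.258 on the static and 4.24 ± 0.833 on the microgravity arrays (log2 change -0.27, interval -0.68 to 0.14). Trp53inp1, a stress-induced p53 target, had 5.85 ± 1.25 (static) and 5.89 ± 0.688 (microgravity). Trp53inp2, its relative with a role in autophagy, had 8.45 ± 1.98 (static) and 6.88 ± 0.307 (microgravity). Trp53bp1, a scaffold at DNA double-strand breaks, was near the floor, at 0.191 ± 0.0935 (static) and 0.221 ± 0.116 (microgravity).

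The GADD45 family was divided, and its 3 measured genes all had an unadjusted p under 0.05, 1 higher and 2 lower. Of all tested genes, 5.79% were higher and 5.70% lower at this p. GADD45 proteins are small acidic stress sensors that bind p21, PCNA and the kinase MTK1. Gadd45a, the classical p53 target of the family, read 21.2, 30.2 and 12.5 on static 1, 2 and 3 and 55.0, 43.1 and 55.8 on microgravity 1, 2 and 3. The static arrays were widely spread, yet all lay below the microgravity arrays, and the ratio of 2.54 was the highest among genes of the list with p under 0.05 (log2 change 1.35, SE 0.32, limma adjusted p = 0.173). Without static 3, the lowest of them, the log2 change was 1.01, and without static 2 it was 1.64.

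Gadd45g, a family member prominent in development and cytokine responses, had lower values in simulated microgravity. It read 7.19, 6.46 and 8.74 on the static and 3.72, 2.54 and 4.60 on the microgravity arrays. The groups did not overlap and the gene had a 2.11-fold lower mean (log2 change -1.08, SE 0.25, limma adjusted p = 0.159). Gadd45b, which is induced by TGF-beta and NF-kappaB signals, read 6.98, 9.59 and 4.76 (static) and 4.34, 3.76 and 4.86 (microgravity). Static 3 lay within the microgravity range, and the log2 change of -0.67 (SE 0.27, limma adjusted p = 0.429) became -0.42 without static 2 and -0.33 without static 2 and microgravity 2 together. The 95% intervals of Gadd45a (0.58 to 2.11) and of Gadd45g (-1.66 to -0.49) do not meet, while the difference between the genes was not itself tested.

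The start-site windows of the 3 family members are printed together because their mRNAs had opposite directions on the same arrays. Whether the matches bear on these directions was not tested. Capitals mark a CCAAT box and a p53 half-site in Gadd45a, 2 CCAAT boxes and a TATA box in Gadd45b, and a CCAAT box and a TATA box in Gadd45g.
Gadd45a, chr6:67037358-67037657, - strand: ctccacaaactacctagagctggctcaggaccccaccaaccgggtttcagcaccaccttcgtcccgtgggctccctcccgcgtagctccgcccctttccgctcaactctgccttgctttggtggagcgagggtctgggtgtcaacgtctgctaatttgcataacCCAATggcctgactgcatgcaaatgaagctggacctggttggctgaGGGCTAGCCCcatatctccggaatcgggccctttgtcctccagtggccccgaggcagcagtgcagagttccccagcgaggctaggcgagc
Gadd45b, chr10:80929841-80930140, + strand: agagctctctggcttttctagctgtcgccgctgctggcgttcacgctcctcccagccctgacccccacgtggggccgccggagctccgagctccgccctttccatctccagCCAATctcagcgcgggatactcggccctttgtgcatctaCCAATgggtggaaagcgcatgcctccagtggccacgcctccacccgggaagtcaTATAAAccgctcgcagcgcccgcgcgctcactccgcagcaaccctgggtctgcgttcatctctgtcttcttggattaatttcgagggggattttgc
Gadd45g, chr13:51846425-51846724, + strand: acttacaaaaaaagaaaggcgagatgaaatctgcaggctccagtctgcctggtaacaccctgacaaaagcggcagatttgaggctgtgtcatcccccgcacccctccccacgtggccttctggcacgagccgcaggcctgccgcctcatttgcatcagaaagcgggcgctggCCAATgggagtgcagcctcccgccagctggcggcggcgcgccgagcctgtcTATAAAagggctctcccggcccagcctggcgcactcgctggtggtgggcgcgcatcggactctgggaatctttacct
All 3 windows hold the CCAAT box on the strand of the gene, in Gadd45a at -86 to -82, in Gadd45b at -139 to -135 and -100 to -96, and in Gadd45g at -78 to -74. The TATA box was found in Gadd45b at -46 to -41 and in Gadd45g at -27 to -22 but not in the Gadd45a window, whose p53 half-site lies at -40 to -31. TATA boxes stood in 13.6% and CCAAT boxes in 37.4% of all windows, and in 4 and 21 of the 50 windows of the list.

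**Figure D3:**
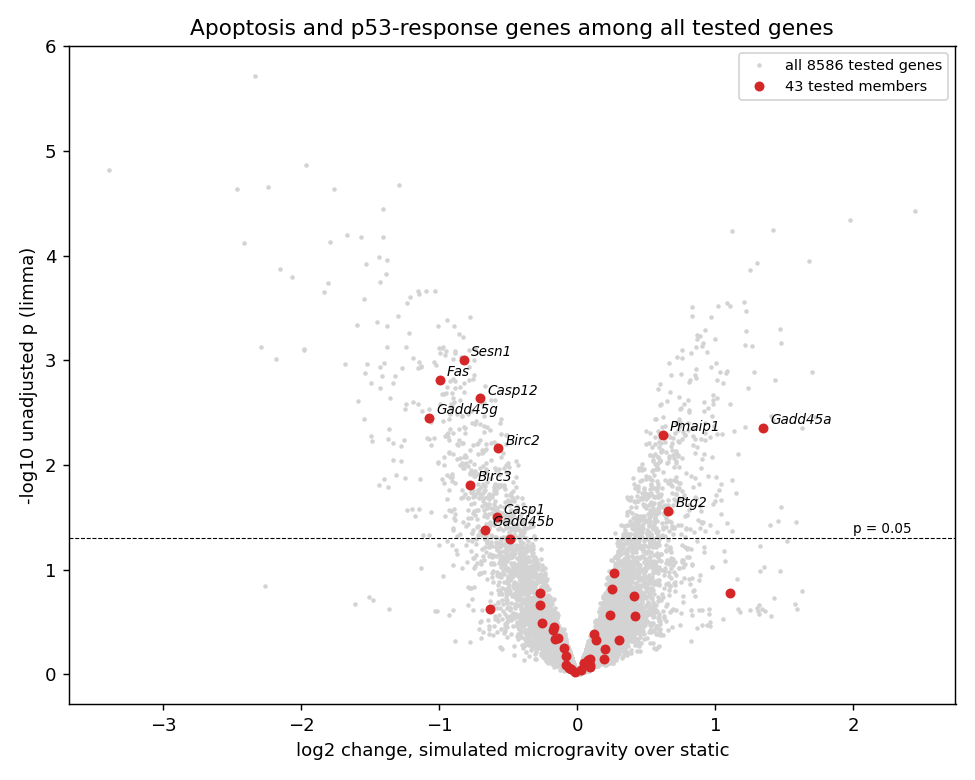
Log2 change (x axis) against -log10 of the unadjusted limma p (y axis) for all 8586 tested genes (grey) and the 43 tested genes of the list (red), with names where p was under 0.05. The 11 named genes lie within the cloud of all genes, 8 to the left and 3 to the right.

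Other genes of the same pathways, outside the rule that chose the 44, were taken from a list of 96 names. Of these, 71 had a probe and 68 could be tested. None passed (0 by limma at an adjusted p under 0.05), and at an unadjusted p under 0.05 there were 1 lower (1.47%) and 8 higher (11.8%), beside 5.70% and 5.79% of all genes. Groups did not overlap in 3 on the lower side (4.41%, against 8.07% of all genes) and in 12 on the higher side (17.6%, against 8.51%). Their median log2 change was 0.11, with 24 lower and 44 higher. Among the 44 genes lower values were the more frequent at this p, and the difference between the lists was not tested.

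The lower gene was Bok, a pore-forming relative of BAK1, which read 2.98, 2.93 and 2.78 on the static and 1.94, 1.91 and 2.12 on the microgravity arrays (log2 change -0.54, limma adjusted p = 0.214). Cycs, the cytochrome c that activates APAF1 once released, was higher without overlap, at 35.5, 38.3 and 31.7 (static) and 51.8, 48.9 and 67.4 (microgravity) (log2 change 0.66, limma adjusted p = 0.218). Tnfrsf12a, the receptor for TWEAK, read 18.7, 23.9 and 17.0 (static) and 37.1, 28.6 and 54.6 (microgravity) (log2 change 0.97, limma adjusted p = 0.220).

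The DNA damage kinase gene Atr had 12.1 ± 0.632 on the static and 17.4 ± 1.99 on the microgravity arrays (log2 change 0.52). Ddit4, an inhibitor of mTORC1 induced by stress, had 3.71 ± 0.630 (static) and 5.50 ± 0.497 (microgravity) (log2 change 0.58), and so differed in direction from Sesn1. Ei24, a p53-induced gene, had 1.66 ± 0.0695 (static) and 2.34 ± 0.309 (microgravity) (log2 change 0.49). The p53 target genes Aen and Zmat3, named after their values were seen, had log2 changes of 0.64 and 0.65 (limma adjusted p = 0.363 and 0.377). Ddb2 and Phlda3 of the same list, also named after their values were seen, were lower. Their log2 changes were -0.48 and -0.36 (limma adjusted p = 0.658 and 0.573).

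**Figure D4:**
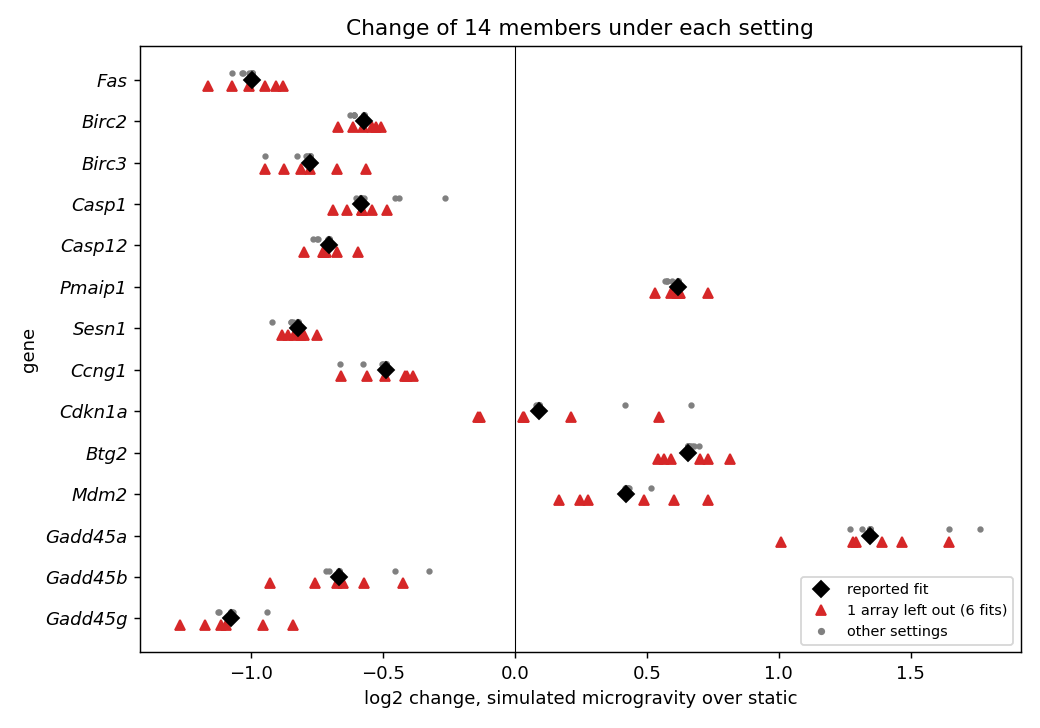
Log2 change (x axis) of 14 genes (y axis) in the reported fit (black diamonds), with 1 array left out (red triangles, 6 fits) and under the other settings (grey dots). Every mark of the genes other than Cdkn1a stays on 1 side of 0, while Cdkn1a crosses it.

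All 11 genes with an unadjusted p under 0.05 kept their direction in each alternative fit in which they had a value. Over the whole list, 27 of the 43 did so and 16 turned in at least 1 alternative. The 11 were picked for a low p on these arrays, and every alternative refits the same arrays or a part of them. Some settings alter only the p and leave the log2 change as it was. For the 11 genes a kept direction was thus largely fixed in advance and does not test the differences anew.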

How the data were processed

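The deposited table holds 1 intensity per probe and array on a linear scale. How the authors scanned, corrected and scaled the arrays was not given in the sources used here. Intensities were taken relative to the median of their own array, raised to 0.1 where lower, and converted to log2. Changes are differences of mean log2 values, folds and ratios come from these, and the floor understates those of dim probes. Left out were probes for which a group had fewer than 2 values or all arrays stood at the floor (354 of 10500). Groups (3 arrays each) were compared with limma 3.58.1 in R 4.3.3 (lmFit, eBayes with an intensity trend, 2-sided, Benjamini-Hochberg over 10146 probes, threshold 0.05). The fit was also run on simulated data, made of independent normal values without a floor or missing values. That run cannot show whether the assumptions of the fit hold for these arrays. The number of arrays limits the precision. Symbols came from GEO's platform annotation; for all 44 genes the gene identifier had the same symbol in the GRCm38.p6 table. Genes given on every array were those with an unadjusted p under 0.05 and a set of central genes; of the other pathway genes, the 6 with the smallest p were named. Bcl2l2, Apaf1, Casp2 and Perp were given in that detail after their values were seen. Members, roles and lists were chosen with earlier results of these data known.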

Additional observations from a re-analysis of the deposited data

How the results depend on the processing

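In the 21 alternatives, the count of 0 genes past the threshold became 2 with array weights (Fas and Sesn1) and stayed 0 in the others, in which 8 to 13 genes had an unadjusted p under 0.05 and the median log2 change lay between -0.12 and 0.04. The replicate block gave 0 genes past the threshold and 9 at an unadjusted p under 0.05. Same-numbered samples deviated from their group means with correlations of -0.21, 0.45 and -0.18 over probes, and the samples numbered 1 and 3 correlated better with another number, so the numbers were not taken as pairs. Static 1 correlated best with microgravity 3 (0.66) and static 3 with microgravity 1 (0.38). The replicate block followed the sample numbers, and a block by these other matches was not fitted. Over all probes, 28 past the threshold became 115 with array weights, 53 to 59 under a floor of 0.05, no floor, cyclic loess or quantile normalization and without the dimmest 25% or 50% of probes, and 0 with the replicate block or whichever array was left out. Other genes of the pathways stayed at 0 in all 21. The central genes that turned sign had log2 changes from -0.08 (Bcl2l1) to 0.20 (Cflar) in the reported fit. Xiap had -0.010 with quantile normalization and -0.21 under a floor of 0.2, and Fadd 0.022 without static 2 and microgravity 2 together. With 1 array left out, Xiap ran from -0.39 to 0.51, Fadd from -0.26 to 0.19, Cdkn1a from -0.14 to 0.55, Bcl2 from -0.0088 to 0.18, Bcl2l1 from -0.20 to 0.024 and Cflar from -0.066 to 0.46; the arrays left out are the cause by construction. Averaging several probes could not alter the log2 changes of the 44 genes, which have 1 probe each. Adjusted p-values shifted slightly, as for Sesn1 from 0.0951 to 0.0925 (limma). Signal over background limits Fasl, Xiap, Trp53bp1, Perp and Bcl2l1, whose values lie near the floor.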
